A study of Mus musculus with 19 samples.

Results

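In the B6SPRTF1 hybrid, a minority of the recombination hotspots set by the SPRT allele of PRDM9 was cut mainly on the SPRT homolog. These hotspots, called SPRT-cut here, are the autosomal hotspots of the wild-type hybrid (B6/SPRT) that were attributed to the SPRT allele and at which under 25% of the DMC1 reads came from the B6 homolog. There were 806 of them, out of 9247 autosomal SPRT-allele hotspots in B6/SPRT and 74327 hotspots over the 5 deposited tables. A B6 fraction was listed for 7456 of the 9247, so the SPRT-cut hotspots made up 10.8% of those that could be placed (95% Wilson interval 10.1 to 11.5%). The remaining hotspots with a fraction comprised 2200 matched hotspots, with 25 to 75% of the DMC1 reads from B6, and 4450 cut on B6, with over 75%.

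PRDM9 is a histone methyltransferase of meiotic cells that binds DNA through a rapidly evolving zinc-finger array, marks the surrounding nucleosomes with H3K4me3 and thereby sets where programmed double-strand breaks form. DMC1 coats the resected single-stranded DNA at these breaks, and its immunoprecipitation followed by single-stranded DNA sequencing (SSDS) maps them. Because the broken chromosome is repaired with its homolog as template, a variant that weakens binding is copied onto the chromosome that was cut, so intact motifs are lost over generations, a process called hotspot erosion. An allele tends to erode the motifs of the lineage that carried it, so the SPRT allele is expected to meet more intact sites on the B6 homolog, and hotspots of this allele that are cut on the SPRT homolog run against that direction.

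The animals were male B6SPRTF1 hybrids analysed at 10 weeks of age, from C57BL/6J (B6) mothers and SPRET/EiJ fathers of the species M. spretus (SPRT, written SPRETUS in the labels). All of them carry 1 wild-type SPRT allele of Prdm9 and 1 full set of chromosomes from each parent species. B6/SPRT carries the wild-type B6 allele on the maternal side, Hum/SPRT the humanized allele Prdm9tm1.1(PRDM9)Wthg, made from the human PRDM9 B allele, and CAST/SPRT the allele Prdm9tm1.1Kpgn, with the zinc-finger array of M. musculus castaneus. The latter pair inherited the engineered allele from heterozygous mothers. The material was whole adult testis, so spermatocytes were not separated from other cells. STUS/B6 and STUS/Hum are hybrids with the STUS strain of the house mouse and carry no SPRT allele. There was 1 DMC1 library per genotype and 1 H3K4me3 value per genotype and hotspot. The labels list 2 H3K4me3 ChIP samples in B6/SPRT, 2 in CAST/SPRT and 3 in Hum/SPRT, each with as many inputs, and how they were combined is not stated in the tables. The Hum/SPRT samples are numbered rep1, rep1b and rep2, so rep1b may be a repeat of rep1 and not a further replicate. No replicate error between genotypes can therefore be given, no test between genotypes was made, and the intervals below cover counting error only. Hotspots of 1 library share that library, so they are not replicates of a genotype. The number of DMC1 reads behind each fraction is unknown.

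The X chromosome gave a check of how reads were assigned to homologs, because male offspring of this cross have their X from the B6 mother. In B6/SPRT, 409 SPRT-allele hotspots on the X had a DMC1 fraction, and the lowest of them was 96.1% B6 with a median of 100%. The H3K4me3 reads of 408 such hotspots gave a lowest value of 93.8% and a median of 100%. None of the 409 fell under the limit of 25%. No autosomal hotspot has such a known answer, but reads of the B6 homolog were seldom called SPRT on the X, which says nothing of SPRT reads called B6.

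Reference sequence was at hand for promoters only. Of the SPRT-cut hotspots called in all of the B6SPRTF1 genotypes, 3 have a center within 300 bp of an annotated start site. The promoters at these 3 are given. They come from RefSeq (GRCm38.p6, the mm10 build of the hotspot positions), run 5′ to 3′ on the strand of the gene from 250 bases before the start site to 50 after it, and show the B6 sequence, not that of SPRT. Capitals mark the bases within 100 bp of the hotspot center.
Lmntd1, chr6:145434876-145435175, minus strand: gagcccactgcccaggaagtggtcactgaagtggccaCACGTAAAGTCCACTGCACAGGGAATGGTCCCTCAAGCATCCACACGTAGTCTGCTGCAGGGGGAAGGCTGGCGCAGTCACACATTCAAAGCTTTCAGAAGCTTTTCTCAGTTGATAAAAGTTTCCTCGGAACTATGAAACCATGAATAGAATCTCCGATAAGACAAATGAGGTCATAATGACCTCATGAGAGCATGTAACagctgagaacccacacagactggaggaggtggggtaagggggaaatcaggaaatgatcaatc
Stra6, chr9:58134415-58134714, plus strand: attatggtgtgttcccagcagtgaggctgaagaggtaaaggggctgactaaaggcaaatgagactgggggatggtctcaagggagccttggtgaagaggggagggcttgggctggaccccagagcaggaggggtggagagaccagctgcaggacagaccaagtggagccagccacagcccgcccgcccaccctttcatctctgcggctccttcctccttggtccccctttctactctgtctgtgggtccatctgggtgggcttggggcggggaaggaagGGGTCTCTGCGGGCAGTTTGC
Gm35193, chr13:60044949-60045248, minus strand: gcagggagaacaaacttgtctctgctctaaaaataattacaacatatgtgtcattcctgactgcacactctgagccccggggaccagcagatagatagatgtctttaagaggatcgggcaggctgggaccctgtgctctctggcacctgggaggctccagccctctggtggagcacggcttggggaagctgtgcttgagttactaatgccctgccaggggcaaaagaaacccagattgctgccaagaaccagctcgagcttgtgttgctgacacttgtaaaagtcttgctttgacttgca
The start site of Lmntd1, a gene for a lamin tail domain protein, lay 113 bp from the center at chr6:145435038, so that 201 of the 300 bases are in capitals. The start site of Stra6, the cell-surface receptor for retinol uptake, lay 129 bp from the center at chr9:58134794, and 21 bases are in capitals. That of Gm35193, a long non-coding RNA, lay 277 bp from the center at chr13:60044721, and its promoter has no base that close. The G and C content of the promoters was 49.0% for Lmntd1, 61.3% for Stra6 and 52.0% for Gm35193, beside a median of 52.7% over 32851 promoters in the table. The CG dinucleotide occurred 5, 5 and 4 times in them, beside a median of 7.

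The values at the Lmntd1 promoter were a DMC1 signal of 125, with 15.1% of the DMC1 reads from B6 in B6/SPRT and 19.7% in Hum/SPRT, and no fraction listed in CAST/SPRT. Its H3K4me3 reads were 37.4% B6 in B6/SPRT (exact 95% interval 29.1 to 46.3%, 131 SNP-carrying reads), 47.7% in Hum/SPRT and 41.5% in CAST/SPRT. At the Stra6 promoter the DMC1 signal was 106 and the B6 share of DMC1 reads was 9.42% in B6/SPRT, while Hum/SPRT had 4.81% and CAST/SPRT 14.3%. The H3K4me3 share there was almost the same in the 3 genotypes, at 18.3% (interval 15.2 to 21.9%, 540 reads), 18.6% and 18.2%. At the Gm35193 promoter 1.54%, 3.59% and 0% of the DMC1 reads came from B6, with H3K4me3 shares of 10.9%, 10.5% and 3.87%. In all, the 1 kb windows of 8 SPRT-cut hotspots overlapped a promoter, of 774 on the chromosomes covered by the promoter table (1.03%, Wilson interval 0.525 to 2.03%), beside 0.999% of all SPRT-allele hotspots. The other five were at Gm16066, Gm45631, F2 (prothrombin), Gm39750 and Cryaa (a lens crystallin), and these 8 were chosen after their values were seen.

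The rule itself used the DMC1 reads of B6/SPRT, so the DMC1 values of this library describe how the SPRT-cut hotspots were chosen. Their B6 share had a median of 6.67% (quartiles 2.31 and 15%), and 345 of the 806 were under 5%. It was 0 at 41 hotspots and under 2% at 173. The number of hotspots per 5-point bin fell from 345 in the lowest bin to 100 in the bin below the limit, so the class holds a peak at the SPRT end and a tail toward the matched hotspots. Just inside the limit were hotspots in Map4 (chr9:109976951, 24.7%), Trak1 (chr9:121460536, 24.7%) and Grm8 (chr6:27636363, 24.7%). Just outside were those in Fam126b and Gm15834 (chr1:58534238) and in Ebf4 (chr2:130305824), both at 25%. The same limit applied to SPRT-allele hotspots of the other tables gave 757 of 7368 in Hum/SPRT (10.3%, interval 9.60 to 11.0%) and 277 of 4202 in CAST/SPRT (6.59%, interval 5.88 to 7.38%).

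**Figure D1:**
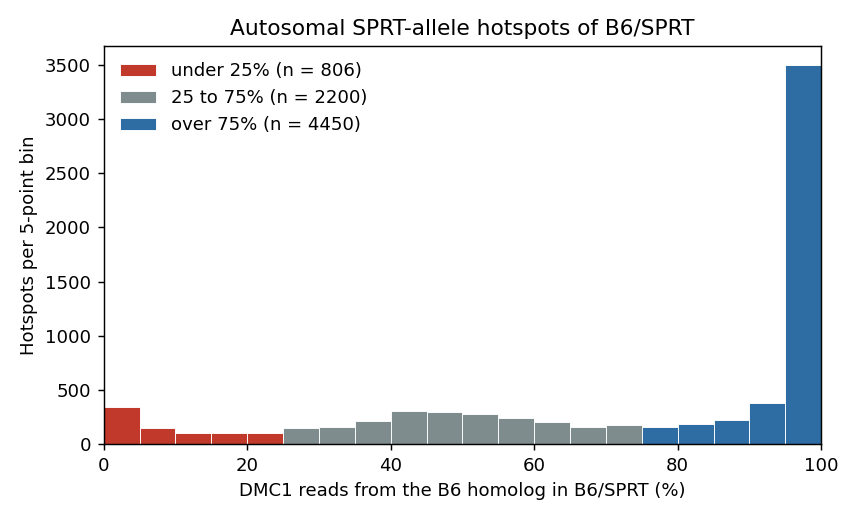
Number of autosomal SPRT-allele hotspots of B6/SPRT (y axis, hotspots per 5-point bin) by the percentage of their DMC1 reads from the B6 homolog (x axis), with colors for the 3 classes. The 806 SPRT-cut hotspots on the left form a small peak below 5%, far lower than the peak of hotspots cut on B6 on the right.

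SPRT-cut hotspots were weaker than other hotspots of the allele. Their DMC1 signal, the value of the authors' caller with no stated scaling, had a median of 64.2 (quartiles 37.3 and 115, range 8.11 to 732). It was 88.4 at matched hotspots and 135 at those cut on B6. In whole testis, fewer cells with a break and less DMC1 per cell cannot be told apart. The 4122 B6-allele hotspots of the same library had a median of 43.4. With all SPRT-allele hotspots split by signal into 4 equal bins, 330, 249, 177 and 50 SPRT-cut hotspots were found from the weakest to the strongest. They were 18.9% of the hotspots with a fraction in the weakest bin (interval 17.2 to 20.8%) and 2.52% in the strongest (interval 1.91 to 3.30%). The DMC1 signal on each homolog was taken as the signal multiplied by the fraction of reads from it, and that fraction chose the hotspots. The low values on the B6 side are fixed by the rule. The contrasts with matched hotspots depend on the rule on both sides and are given as a description. On the SPRT side the median was 58.0 at SPRT-cut and 44.5 at matched hotspots, whereas on the B6 side it was 3.62 and 42.4.

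H3K4me3 is read in libraries that the rule did not use, and it leaned to the same homolog at most of these hotspots, although less far. Since the DMC1 share chose the hotspots, a gap between the assays can follow in part from the choice. Its B6 share at SPRT-cut hotspots had a median of 28.1% (order-statistic 95% interval of the median 26.3 to 30.1%), with quartiles of 17.1 and 41.8% and a range of 3.73 to 83.3%. At matched hotspots the median was 57.7%, and at hotspots cut on B6 it was 89.9%. The mark was under 25% B6 at 357 of 806 SPRT-cut hotspots (44.3%, Wilson interval 40.9 to 47.7%), beside 6.76% of all SPRT-allele hotspots. Only 3 of 2200 matched hotspots and 0 of 4450 cut on B6 were that low, and the count of 0 has a Wilson upper limit of 0.0863%. The exact interval of the H3K4me3 share lay wholly below 50% at 594 SPRT-cut hotspots (73.7%, interval 70.6 to 76.6%), beside 13.1% of all SPRT-allele hotspots. It held 50% at 172 and lay wholly above it at 40 (4.96%, interval 3.67 to 6.69%), beside 71.6% of all. The SPRT-cut hotspots had a median of 171.5 SNP-carrying H3K4me3 reads (range 21 to 1158), against 307 at matched hotspots, so their intervals were wider. The count of such reads exceeded the ChIP coverage of the window at 94.9% of autosomal hotspots of B6/SPRT. Should some reads have been counted more than once, the exact intervals are too narrow, and fewer hotspots may lie wholly on either side of 50%. At 578 SPRT-allele hotspots with 45 to 55% of DMC1 reads from B6, called balanced here, the median H3K4me3 share was 57.0%, an offset from 50%. Over all SPRT-allele hotspots it was 69.2%. Balanced hotspots were picked by their DMC1 share, so whether 57.0% stands for equal use of the homologs is not known. Reads were aligned to a genome of the B6 strain, and the part of that in the offset was not tested.

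**Figure D2:**
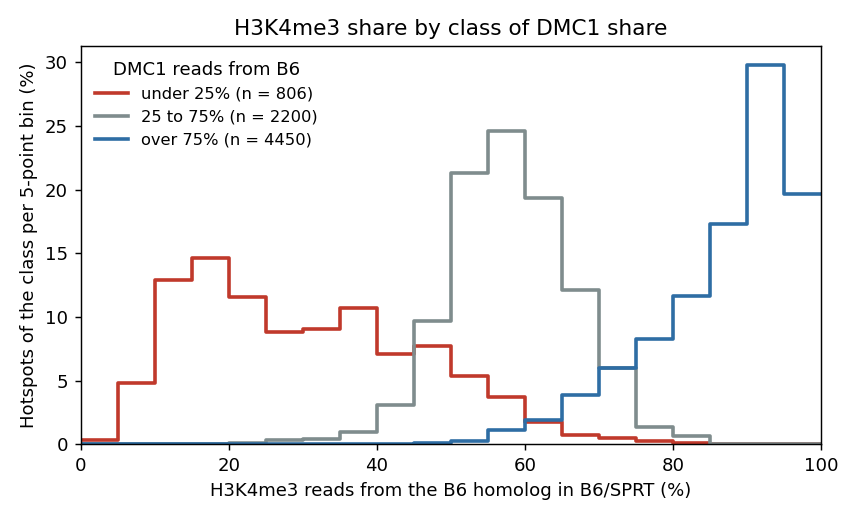
Distribution of the percentage of H3K4me3 reads from the B6 homolog in B6/SPRT (x axis) for the 3 classes of SPRT-allele hotspot defined by DMC1, as the percentage of each class per 5-point bin (y axis). The SPRT-cut hotspots are spread from 3.73 to 83.3% with a median of 28.1%, while matched hotspots peak between 55 and 60% and hotspots cut on B6 between 90 and 95%.

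The total amount of H3K4me3 was also lower at SPRT-cut hotspots. The enrichment over input in the 1 kb window had a median of 5.23 (quartiles 3.30 and 7.45), against 9.31 at matched hotspots and 8.46 at those cut on B6. Input coverage was about equal, with medians of 18, 19 and 19, and ChIP coverage was 107.5, 198 and 183. When the enrichment was split by its B6 share, most of the difference from matched hotspots was on the B6 homolog. The classes were chosen by the DMC1 share, which went with the H3K4me3 share, so this contrast can follow in part from the choice. On the SPRT side the median was 3.54 at SPRT-cut and 3.80 at matched hotspots, whereas on the B6 side it was 1.16 and 5.32. At hotspots cut on B6 the picture was turned around, with 0.710 on the SPRT side and 7.48 on the B6 side. A background level of the mark was not subtracted, so the lower side of either class need not have been bound. At a given enrichment, the DMC1 signal per unit of H3K4me3 was higher at SPRT-cut than at matched hotspots in the lower 3 of 4 equal bins of enrichment (medians 15.3, 12.3 and 12.2 against 13.0, 9.93 and 9.62) and lower in the highest (8.55, 37 hotspots, against 10.3). Hotspots cut on B6 had higher medians than SPRT-cut hotspots in all 4 bins, at 15.8, 15.3, 17.4 and 14.8, so a higher ratio was not particular to the SPRT-cut hotspots. No test was made on these ratios, which share the DMC1 library of the rule.

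The H3K4me3 share divided the SPRT-cut hotspots into those marked mainly on SPRT and those marked more evenly. The 357 with under 25% B6 had a median DMC1 signal of 79.1, and 3.08% of their DMC1 reads came from B6. The 349 with 25 to 50% had a signal of 54.2 and a DMC1 share of 9.82%. A further 97 had 50 to 75% of the mark on B6 while 18.8% of their DMC1 reads came from it, with a signal of 53.3. The 3 with 75% or more had a median signal of 28.1. Across the 806 hotspots the DMC1 and H3K4me3 shares had a Spearman rho of 0.60, a description over hotspots of the same pair of assays whose range was set by the rule on 1 side. From the DMC1 bin of 0 to 5% to that of 20 to 25%, the median H3K4me3 share rose from 18.7 to 48.2%.

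The strongest SPRT-cut hotspots show how far this went at single positions. The largest signal, 732, was at chr1:178250000 within Desi2, and only 2 SPRT-allele hotspots of the library were stronger. Of its DMC1 reads 16.7% were from B6 in B6/SPRT, which compared with 20.2% in Hum/SPRT and 10.7% in CAST/SPRT. Its H3K4me3 share was 33.6% in B6/SPRT (exact interval 29.6 to 37.7%, 545 reads), while Hum/SPRT had 34.6% and CAST/SPRT 39.8%. The cut was thus on SPRT in each genotype, and the mark was less one-sided than the breaks.

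At chr11:29196761, within Ppp4r3b (a regulatory subunit of protein phosphatase 4), the signal was 420 and almost no DMC1 read came from B6, with 0.398% in B6/SPRT, while Hum/SPRT had 0.891% and CAST/SPRT 1.01%. The H3K4me3 share was 10.3% (interval 6.93 to 14.7%, 261 reads), 8.21% and 1.58%. At chr15:4099042, within Oxct1 (an enzyme of ketone body use), the signal was 471, and 0.868%, 1.27% and 1.71% of the DMC1 reads came from B6. Here the mark was weak, with an enrichment of 2.77 in B6/SPRT, and its B6 share was 17.7% (interval 11.9 to 24.8%, 147 reads), 25.4% and 5.68%. Cutting at both positions was close to complete on the SPRT homolog in all 3 genotypes.

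At chr3:10210151, 1.54 kb from Fabp4 (a fatty acid carrier of adipocytes), the signal was 444 and the B6 share of DMC1 reads was 10.9%, 7.31% and 13.5% in B6/SPRT, Hum/SPRT and CAST/SPRT. At chr19:3803650, within Kmt5b (a methyltransferase for histone H4) and the overlapping Gm16066, the signal was 417 and the shares were 2.64%, 3.83% and 5.66%. At chr17:43622218, within Tdrd6 (a tudor-domain protein of the chromatoid body of spermatids), the signal was 380 and the shares were 2.73%, 3.33% and 8.57%. Cdc7, a kinase that fires replication origins, held the hotspot at chr5:106974162, with a signal of 369 and shares of 17.5%, 17.6% and 18.4%. It was the only one of the 10 strongest with a lower share in the mark than in the breaks, at 14.9% of the H3K4me3 reads from B6 (interval 10.6 to 20.2%, 228 reads).

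At chr18:57723661, within Ccdc192, the signal was 343 and the share was 14.4% in B6/SPRT and 20.9% in CAST/SPRT, with none listed in Hum/SPRT. At chr8:84412450, within Cacna1a (the pore of a neuronal calcium channel), the signal was 321 and the share was 5.12%, 5.68% and 4.49%, with an H3K4me3 share of 8.98% (interval 6.89 to 11.5%, 646 reads). Each of the 10 strongest was called in both other genotypes and stayed under 25% wherever a fraction was listed, at 9 of 9 in Hum/SPRT and 9 of 9 in CAST/SPRT. The exact H3K4me3 interval lay below 50% at 10 of 10. That all 10 were called again says little of them. Of all SPRT-allele hotspots in the strongest of the 4 bins of signal, 2306 of 2312 (99.7%) were called in CAST/SPRT. For Hum/SPRT, recall was 99.6% over all SPRT-allele hotspots. Exons and introns were not told apart, since gene extents alone were used.

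Among the other SPRT-cut hotspots the mark was strongest at chr10:77870442 within Tspear, at chr3:103933859 within Rsbn1 (a nuclear protein of round spermatids) and at chr7:37160880, 4.04 kb from Gm28075. Their enrichments were 20.9, 20.3 and 19.5, and their DMC1 signals 155, 196 and 149. The B6 share of H3K4me3 was 43.2% (interval 38.8 to 47.7%), 30.6% (25.6 to 36.0%) and 42.3% (37.7 to 47.1%), against 23.0%, 14.5% and 22.2% of DMC1 reads. These shares were above the group median of 28.1%, which the interval at the hotspot within Rsbn1 held. From the lowest to the highest of 4 equal bins of enrichment, the median share of SPRT-cut hotspots was 28.7%, 24.5%, 25% and 41.9%. The highest bin held only 37 of them.

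At 40 SPRT-cut hotspots the mark did not lean to the SPRT homolog, with the exact interval of the H3K4me3 share wholly above 50%. Few were strongly one-sided towards B6, since only 2 of the 806 SPRT-cut hotspots had over 75% of the H3K4me3 reads from B6. The strongest of the 40 was at chr5:32684725 within Yes1 (a kinase of the Src family), with a DMC1 signal of 296. There 62.7% of the H3K4me3 reads (interval 58.0 to 67.2%, 437 reads) but 23.0% of the DMC1 reads came from B6. In Hum/SPRT the shares were 61.0% for H3K4me3 and 25.1% for DMC1, and in CAST/SPRT 72.1% and 38.3%. At chr3:138795110, within Tspan5 (a tetraspanin), the H3K4me3 share was 60.2%, 60.5% and 52.9% with the genotypes in the same order, and the DMC1 share 14.7%, 13.4% and 12.1%. The gap between the assays had the same direction in the 3 genotypes at both. It did so as well at chr14:18475243 within Gm32587, where H3K4me3 gave 57.5%, 51.8% and 52.4% and DMC1 22.8%, 32.3% and 25.6%. At chr3:115982031 within Slc30a7, a zinc transporter, it gave 55.9%, 52.6% and 52.0% against 21.0%, 23.2% and 25%. At chr3:154303410, 2.88 kb from Lhx8 (a homeobox factor of oocyte development), the pair was 61.1% and 18.5% in B6/SPRT and 54.1% and 28.6% in Hum/SPRT, and the hotspot was not called in CAST/SPRT. The median H3K4me3 share of balanced hotspots, 57.0%, lay within the exact interval at 4 of these 5 and below it at the hotspot within Yes1.

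The same positions were then read in the other genotypes, whose DMC1 libraries the limit did not use. In Hum/SPRT a hotspot center lay within 500 bp at 801 of 806 positions (99.4%, interval 98.6 to 99.7%), beside 99.6% of all SPRT-allele hotspots. This recall says little, because the allele had been assigned by comparison with other mice: in B6/SPRT 99.6% of autosomal hotspots labelled SPRT had a partner in Hum/SPRT, against 0.509% of 4122 labelled B6 and 7.70% of 5103 with no allele. The label and the recall therefore nearly coincide. Of the 801 partners 796 were labelled SPRT, and the median distance between the centers was 64 bp.

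The B6 fraction at these partners is not fixed by the label. In Hum/SPRT 722 had one, and 609 of them were again under 25% (84.3%, interval 81.5 to 86.8%), beside 10.3% of all SPRT-allele hotspots. The median was 13.3% (quartiles 7.37 and 21.1%), and 721 of 722 were under 50%. The exception, chosen after its value was seen, was a hotspot within Gm30520 at chr13:50044007, with 55.6% in Hum/SPRT and 23.5% in B6/SPRT, a DMC1 signal of 8.11 that was the lowest of the group, and no call in CAST/SPRT. Among matched hotspots 70 of 1925 (3.64%) were under 25% in Hum/SPRT, and among those cut on B6 0 of 4376. The share at the SPRT-cut positions was a median of 5.24 points higher in Hum/SPRT than in B6/SPRT, and 529 of 722 (73.3%) were within 10 points. Hotspots cut on B6 moved the other way, by a median of -1.63 points. Since the group was chosen for low values in B6/SPRT, some rise in another library follows from the choice, and its size was not tested.

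In CAST/SPRT 292 of 806 positions were called (36.2%, interval 33.0 to 39.6%), beside 56.2% of all SPRT-allele hotspots. Of the 241 with a fraction 210 were under 25% (87.1%, interval 82.3 to 90.8%), beside 6.62% of all. The median share was 9.38% (quartiles 4.55 and 17.1%), it was 0 at 28, and the highest was 50%. Among matched hotspots 25 of 891 were under 25%, and among those cut on B6 2 of 2936. Of the 224 SPRT-cut hotspots with a fraction in all 3 genotypes, 189 were under 25% in both others (84.4%, interval 79.0 to 88.5%), beside 4.98% of all. None of the 288 called in both had over 50% in either where a fraction was listed, and only 224 had one in both. Positions deep in the group held most often: of those under 5% in B6/SPRT, 319 of 328 were under 25% in Hum/SPRT and 109 of 109 in CAST/SPRT. For positions at 20 to 25% the counts were 39 of 81 and 16 of 33.

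**Figure D3:**
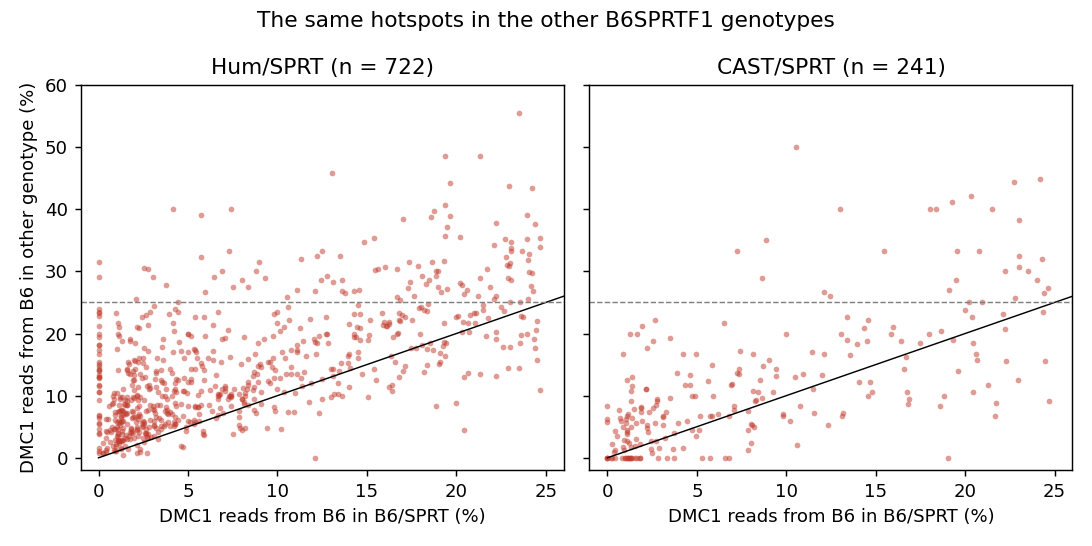
Percentage of DMC1 reads from the B6 homolog at SPRT-cut hotspots in Hum/SPRT (left, 722 hotspots) and CAST/SPRT (right, 241 hotspots) on the y axis against the percentage in B6/SPRT on the x axis. Each point is a hotspot, the solid line marks equal values and the dashed line 25%, under which 609 and 210 of the points lie.

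Recall in CAST/SPRT rose with the DMC1 signal in each class. Of the SPRT-cut hotspots 5.76%, 30.1%, 83.6% and 100% were called again in CAST/SPRT from the weakest to the strongest of the 4 bins of signal in B6/SPRT. Matched hotspots gave 2.54%, 28.6%, 82.0% and 99.6%, and the Wilson intervals of these 2 classes overlapped in each bin. Hotspots cut on B6 gave 5.11%, 39.2%, 92.1% and 99.9%. Their intervals were above those of the SPRT-cut hotspots in the second bin (36.1 to 42.3%, just clear of 24.8 to 36.1%) and in the third (90.5 to 93.5% against 77.5 to 88.3%). With 10 equal bins of signal and the recall of all SPRT-allele hotspots in each, 300.1 of the SPRT-cut hotspots would have been called, and 292 were. For matched hotspots these values were 1129.9 and 1066, and for those cut on B6 2907.4 and 3018. The part of the signal in the lower recall was not tested. The median signal of SPRT-allele hotspots was 103.6 in B6/SPRT, while it was 55 in Hum/SPRT and 27.6 in the table of CAST/SPRT, but its scaling to depth is not stated, so these levels cannot be set against each other.

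**Figure D4:**
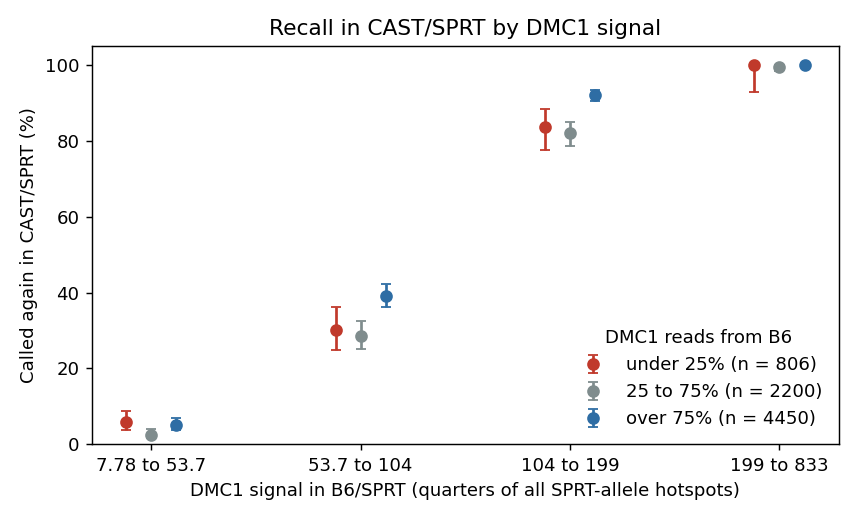
Percentage of SPRT-allele hotspots of B6/SPRT that were called again in CAST/SPRT (y axis) by 4 equal bins of their DMC1 signal in B6/SPRT (x axis), for the 3 classes of DMC1 share. Points are shares and bars 95% Wilson intervals, and recall of the SPRT-cut hotspots rises from 5.76 to 100%.

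The H3K4me3 shares of the positions kept much the same order between genotypes. At the SPRT-cut positions its B6 share had a median of 28.8% in Hum/SPRT (801 hotspots) and 15.7% in CAST/SPRT (291 hotspots, which were the stronger ones). It was under 25% at 320 of 801 in Hum/SPRT (39.95%, interval 36.6 to 43.4%), beside 6.23% of all SPRT-allele hotspots, and at 185 of 291 in CAST/SPRT (63.6%, interval 57.9 to 68.9%), beside 7.51%. Across the positions the share in B6/SPRT had a Spearman rho of 0.90 with that in Hum/SPRT and 0.88 with that in CAST/SPRT. For DMC1 the values were 0.63 over 722 hotspots and 0.69 over 241, in a range narrowed by the rule. These are descriptions over hotspots that share libraries. Over the 9247 SPRT-allele hotspots of B6/SPRT the median enrichment was 8.13 in that genotype. At those called again it was 26.2 with the CAST allele (5201 hotspots) and 4.97 with the humanized allele (9214 hotspots). The sets differ, and enrichment is 1 value per genotype and hotspot with no stated formula. These levels therefore cannot be set against each other as amounts of the mark. Hotspots cut on B6 also had a more extreme H3K4me3 share with the CAST allele, at a median of 95.7% beside 89.9% in B6/SPRT. The parts of enrichment and of the choice of positions in the medians were not tested.

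The assays were also compared in Hum/SPRT and CAST/SPRT, whose libraries the rule did not use. The classes were still chosen by the DMC1 share, which was correlated between genotypes. A gap between the assays can therefore follow in part from the choice. In Hum/SPRT the DMC1 share was lower than the H3K4me3 share at 669 of 722 positions (92.7%, interval 90.5 to 94.3%), beside 38.3% of all SPRT-allele hotspots, with a median difference of -14.8 points. In CAST/SPRT it was lower at 176 of 240 (73.3%, interval 67.4 to 78.5%), beside 36.6%, with a median of -5.87 points. Matched hotspots also had the lower value in DMC1, by medians of -9.30 and -3.42 points, and hotspots cut on B6 the higher, by 5.59 and 1.95 points. By these medians the breaks were more one-sided than the mark in both of the outer classes, which had been chosen by DMC1. The part of that choice was not tested. At balanced hotspots of B6/SPRT the mark also had a higher B6 share than the breaks, and the part of this offset was not tested.

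The STUS hybrids, which lack the SPRT allele, had a hotspot at only 2 of the 806 positions (0.248%, interval 0.0681 to 0.900%), beside 0.779% of all SPRT-allele hotspots. These were chr10:59437283 within Oit3 and chr15:62228910 within Pvt1, a long non-coding RNA next to Myc.

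SPRT-cut hotspots were found on each autosome, from 18 on chromosome 19 to 64 on chromosome 3. Their share of the SPRT-allele hotspots with a fraction ranged from 6.82% on chromosome 11 (30 of 440, interval 4.82 to 9.57%) to 13.6% on chromosome 10 (56 of 412, interval 10.6 to 17.2%). The Wilson interval held the value over all autosomes, 10.8%, on 18 of 19 chromosomes, the exception being chromosome 11, and the intervals were not adjusted for the number of chromosomes. The median distance to the nearest SPRT-allele hotspot with a fraction was 95.9 kb, and that neighbour was itself SPRT-cut in 110 of 806 cases (13.6%, interval 11.4 to 16.2%), against 10.5% over all such hotspots (interval 9.80 to 11.2%). Neighbours of each other are counted from both ends. Within 100 kb the values were 14.1% (interval 11.1 to 17.9%) and 10.3%.

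The share within protein-coding genes lay between those of matched hotspots and of hotspots cut on B6. Hotspots within 2 kb were about as common as over all SPRT-allele hotspots. The center lay within a protein-coding gene at 55.1% (interval 51.6 to 58.5%), against 60.4% of matched hotspots (interval 58.3 to 62.4%) and 50.4% of those cut on B6 (interval 48.9 to 51.9%). Another hotspot of the library was within 2 kb at 15 of 806 (1.86%), against 1.68% of all, and a B6-allele hotspot at 3 (0.372%), against 0.270%.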

How the data were processed

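DMC1 SSDS (1 library per genotype) and H3K4me3 ChIP-seq with input were measured in whole testis, 19 samples in all. Per the labels' processing notes, reads were aligned with BWA to mm10, with versions not given in the sources used here. The authors called hotspots de novo, took the PRDM9 allele of each from a comparison with hotspots of other mice, and used SNPs to place reads on a homolog. The deposited tables hold, per hotspot, the authors' DMC1 signal, the fraction of DMC1 reads from B6 without its read number, input and ChIP coverage of a 1 kb window, a ratio of enrichment over input with no stated formula, and the fraction of H3K4me3 reads from B6 with the count of SNP-carrying reads, which the authors give beside it. That count exceeds the ChIP coverage at 94.9% of autosomal hotspots of B6/SPRT, so the 2 were counted differently, and exact intervals from it may be too narrow. Each genotype has 1 H3K4me3 column, and how its samples were combined is not stated in the tables. Summed autosomal ChIP coverage was 1818799 to 5213941 per genotype. A further 13 columns of the tables (the authors' p-values and a mark for sharing) were not used.

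Hotspots were selected, matched between tables (nearest center within 500 bp) and counted with Python 3.11.15, pandas 2.3.3, numpy 2.4.6 and scipy 1.17.1, and drawn with matplotlib 3.10.9. Shares carry 95% Wilson intervals, H3K4me3 shares of single hotspots exact (Clopper-Pearson) intervals, and medians order-statistic intervals. All cover counting error only. Matching and intervals were tested on simulated data. Named were the 10 strongest members, the 3 others with the highest enrichment, 3 on either side of the limit, members over 50% in another genotype, and the 5 strongest with an H3K4me3 interval above 50%. Of these, 1 of the 10 strongest and 1 hotspot just outside the limit are counted but not reported here. Genes are from RefSeq GRCm38.p6. Members and lists were chosen with earlier results of these data known. Alternatives covered the limit, read minimum, matching distance, labels, signal and weighting.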

Additional observations from a re-analysis of the deposited data

How the results depend on the processing

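Of 28 alternatives over 10 results, 15 gave a value inside the 95% counting interval of the reported one and 13 outside it. With limits of 10% and 40% the SPRT-cut share of SPRT-allele hotspots was 6.67% and 17.9%, and weighted by DMC1 signal it was 6.36%. With at least 100 SNP-carrying reads, 48.8% of the SPRT-cut hotspots had under 25% of H3K4me3 from B6, with a median of 25.3%. For those under 10% by DMC1 the share was 61.6%, and the shares under 25% again in Hum/SPRT and CAST/SPRT were 95.3% and 98.1%. Recall in Hum/SPRT was 91.9% within 250 bp. At or above the median signal of SPRT-allele hotspots it was 100%, and in CAST/SPRT 87.2%. Within 250 bp, 0% were at a STUS hotspot. Taking the H3K4me3 median of balanced hotspots in place of 50%, an alternative chosen after seeing the data, 85.9% had an interval wholly below. That setting changes only the reference value, whereas each of the others keeps, matches or weights other hotspots by construction. No paired analysis was possible because the replicate numbers of the H3K4me3 samples end in 1 column per genotype and DMC1 has 1 library per genotype. For the same reason no library could be left out. With the DMC1 read numbers unknown, fractions at weak hotspots have unknown precision.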
